A study of Homo sapiens with 14 samples.

Results

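The HOX cluster genes were followed over 14 gene-level expression arrays of WI-38, normal human lung fibroblasts that divide a limited number of times unless telomerase is supplied. The members are the array rows whose platform annotation names exactly 1 gene, HOXA, HOXB, HOXC or HOXD followed by a number. This gave 27 genes, of 39 HOX genes in the RefSeq gene table and among 28869 rows in all: HOXA2 alone of the HOXA cluster on chromosome 7, 10 HOXB genes on chromosome 17, 7 HOXC genes on chromosome 12 and 9 HOXD genes on chromosome 2. The other 10 HOXA genes were not analysed here, and HOXC4 and HOXC6 share 1 row, which stands for neither gene. The cells were 2 arrays of primary WI-38 at passage 19, 10 arrays of WI-38 immortalized with hTERT, the catalytic subunit of telomerase, and labelled A at passages 39, 50, 58, 67 and 95, and 2 arrays of hTERT-immortalized WI-38 labelled B at passage 96, with 2 biological replicates each. All were grown in the same serum-containing medium and reseeded weekly. The groups are named by letter and passage, from A39 to A95 and B96, beside primary. The letters A and B are unexplained in the labels, which also do not say whether a culture is 1 clone or a pool. Every value is a deposited log2 value, so a difference of 1 is a 2-fold change, and values are compared within a gene, not between genes, because probes differ in brightness.

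HOX genes encode homeodomain transcription factors that give cells their position along the head-to-tail axis of the body. They lie in 4 clusters, and the order of the genes along the chromosome follows the order of the body levels at which they act, from the anterior genes with low numbers to the posterior genes with high numbers. Cultured fibroblasts keep much of the HOX pattern of the site they came from, and lung mesenchyme is known for anterior and central genes of the HOXA and HOXB clusters. Genes of groups 1 to 4 are called anterior below, groups 5 to 8 central and groups 9 to 13 posterior, which gives 8, 7 and 12 measured genes.

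Promoter sequences are shown for the genes described in full below for which the RefSeq table holds one, 3 of 7, since the title of the series speaks of differentially methylated regions and DNA methylation in mammals falls mostly on CG. Each runs 5′ to 3′ along the gene's own strand from 250 bases before the annotated start to 50 after it, in build GRCh38.p14, with CG in capitals. CG reads the same on both strands. HOXA2 lies on the minus strand at chr7:27102634-27102933, HOXD8 on the plus strand at chr2:176129455-176129754 and HOXD10 on the plus strand at chr2:176116528-176116827.
HOXA2: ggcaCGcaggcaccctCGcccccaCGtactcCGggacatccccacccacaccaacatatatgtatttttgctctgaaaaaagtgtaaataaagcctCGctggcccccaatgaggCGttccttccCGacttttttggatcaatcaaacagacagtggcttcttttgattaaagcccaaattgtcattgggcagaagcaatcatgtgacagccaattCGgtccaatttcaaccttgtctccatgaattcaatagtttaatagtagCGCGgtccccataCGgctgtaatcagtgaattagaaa
HOXD8: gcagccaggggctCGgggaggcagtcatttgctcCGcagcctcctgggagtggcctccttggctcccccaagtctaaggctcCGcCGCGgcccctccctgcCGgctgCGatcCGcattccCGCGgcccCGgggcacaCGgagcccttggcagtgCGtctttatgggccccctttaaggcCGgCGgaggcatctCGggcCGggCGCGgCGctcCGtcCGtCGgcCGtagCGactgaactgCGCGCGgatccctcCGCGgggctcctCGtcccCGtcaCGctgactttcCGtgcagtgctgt
HOXD10: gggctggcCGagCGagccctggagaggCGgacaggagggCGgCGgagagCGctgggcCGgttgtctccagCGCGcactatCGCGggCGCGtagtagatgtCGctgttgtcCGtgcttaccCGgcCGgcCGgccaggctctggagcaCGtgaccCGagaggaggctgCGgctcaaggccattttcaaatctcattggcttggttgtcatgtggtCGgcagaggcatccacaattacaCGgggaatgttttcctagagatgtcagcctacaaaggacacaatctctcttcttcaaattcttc
The window of HOXA2 holds 11 CG and is 46.3% G or C, that of HOXD10 holds 23 CG and is 60.0% G or C, and that of HOXD8 holds 34 CG and is 71.7% G or C. At least as many CG stand in 54.7%, 35.8% and 15.6% of the 35116 RefSeq promoter windows, respectively. The 11 measured HOX genes with a window held a median of 23 CG, from 4 to 36, against a median of 14 over all windows. The letters AGGTCA, the core of a retinoid receptor half-site, were searched on both strands and stood in none of these 11 windows. Of all windows 13.8% hold them, and 11 windows are too few to show that HOX promoters lack them. Methylation was not measured on these arrays.

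Mature microRNAs encoded inside the clusters are shown because their genes were on the array and lie among the members that varied. MIR10A sits between HOXB4 and HOXB5, and miR-196a-5p is made from both MIR196A1 in the HOXB cluster and MIR196A2 in the HOXC cluster. Pairing of miR-196a with HOXB8 messenger RNA is a textbook case of cleavage directed by an animal microRNA. The seed, bases 2 to 8, is in capitals, and the sequences are from RefSeq (GRCh38.p14).
miR-10a-5p: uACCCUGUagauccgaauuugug
miR-196a-5p: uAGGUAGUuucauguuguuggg
The seeds of these microRNAs differ. The arrays were labelled as whole transcripts, and the files do not say whether a row named for a microRNA gene reads the precursor or a longer RNA across it.

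Labels and arrays did not match in every case. TERT read 7.07 in primary replicate 1, between 10.67 and 12.18 in the 12 hTERT arrays, and 11.70 in primary replicate 2, so the array labelled primary replicate 2 goes against its label. Whether other arrays also carry a wrong label was not tested, and every group mean, SD and contrast below holds for the labels as deposited. Of the 14 arrays, 0 had the array of the same label as its closest partner by correlation over all rows. Instead 5 pairs across labels were each other's closest partner. Replicate 2 of primary, A39, A50, A58 and A95 paired with replicate 1 of A39, A50, A58, A67 and B96, in that order. A67 replicate 2 was also closest to A95 replicate 1, though not the reverse. Each marker was placed by the median, over the 14 arrays, of its percentile among all rows of an array. By that median the 12 fibroblast markers checked all stood above the 75th percentile. The 5 measured blood and 7 epithelial markers had 0 above it, and 1 of 5 endothelial markers, TEK, did. Single arrays can differ from the median.

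HOX genes differed less between closest partners than between arrays of 1 label, given as a description because the partners were chosen on all rows, HOX included. The median absolute difference over the 27 genes lay between 0.080 and 0.15 log2 within the 5 pairs of closest partners and between 0.18 and 0.35 within the 7 pairs that share a label. The same held for all rows, with medians of 0.10 to 0.16 and 0.19 to 0.33. A67 replicate 2 and A95 replicate 1, closest from 1 side only, differed by a median of 0.24 over the HOX genes. That lies within the range of pairs that share a label, while over all rows this pair was at 0.16. Each array is therefore named below. In bulk RNA, fewer cells that express a gene and less RNA per cell cannot be told apart.

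HOX genes varied over the 14 arrays about as much as all rows did. The span, the highest minus the lowest value over the 14 arrays, had a median of 0.91 log2 over the 27 HOX genes and 0.85 over all rows. A span of at least 1 log2 was seen in 9 of 27 HOX genes, or 33.3%, against 37.4% of all rows, and a span of at least 1.5 in 4 of 27, or 14.8%, against 14.6%. These shares are near those of the whole table. The 4 genes were HOXC9 (2.52), HOXD10 (1.73), HOXA2 (1.51) and HOXB8 (1.51). By position, the median span was 0.76 in anterior, 1.03 in central and 0.74 in posterior genes.

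**Figure D1:**
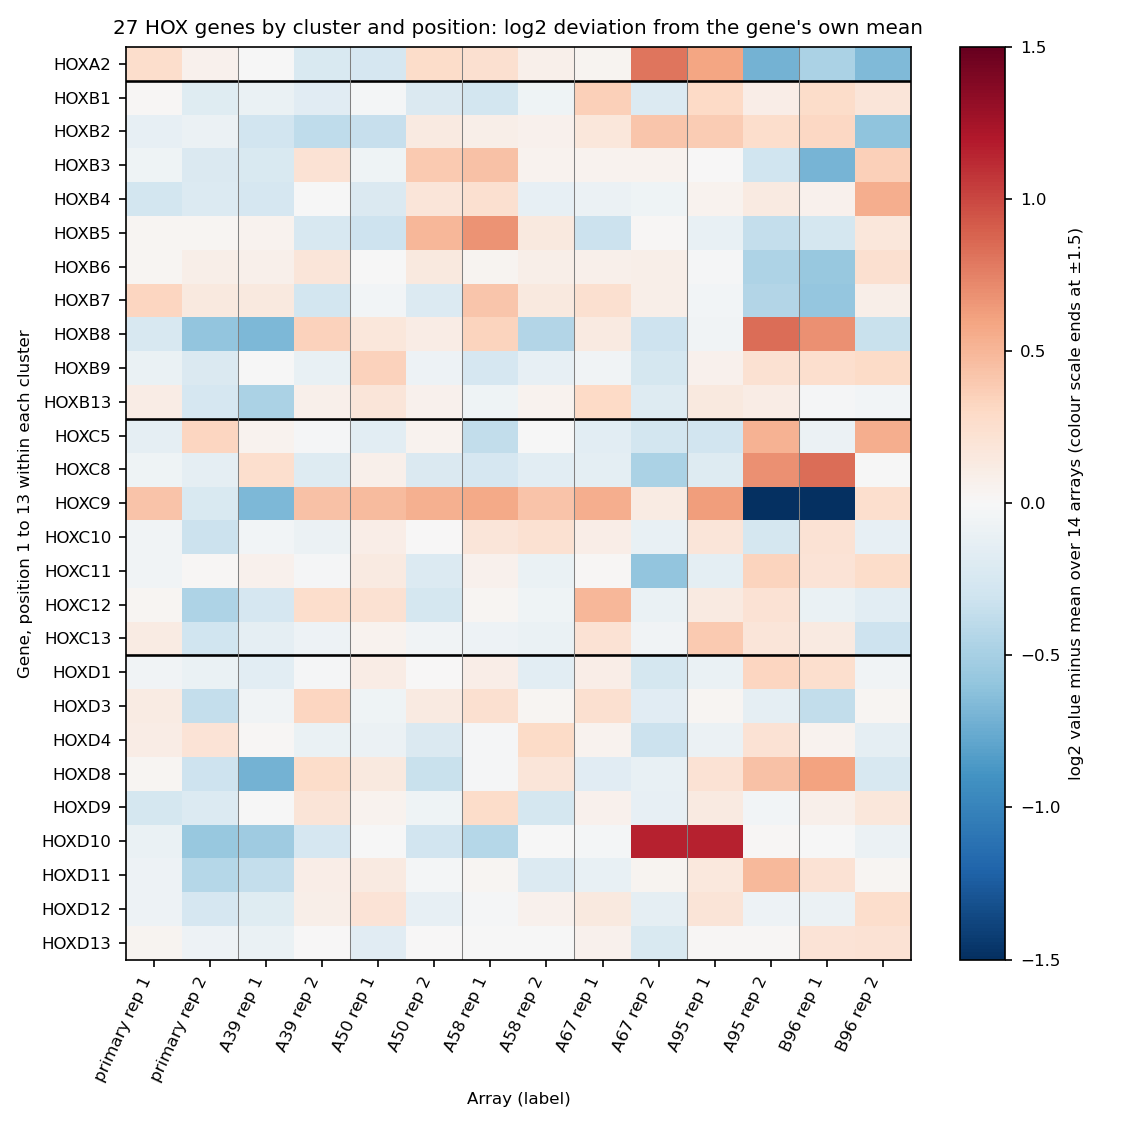
Heat map of the 27 HOX genes (rows, by cluster and position) over the 14 arrays (columns, by label), coloured by the log2 value minus the gene's mean over the 14 arrays; grey lines separate the labelled groups, black lines the clusters, and the colour scale ends at 1.5 either way. HOXC9 is lowest in A95 replicate 2 and B96 replicate 1, at 5.40 and 5.66, and HOXD10 is highest in A67 replicate 2 and A95 replicate 1, both at 7.30.

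HOXC9, a trunk-level gene that patterns thoracic motor neurons, had the widest span. It read 7.72 and 7.06 in primary replicates 1 and 2, 6.62 and 7.73 in A39, 7.77 and 7.83 in A50, 7.86 and 7.72 in A58, 7.84 and 7.42 at A67, 7.92 and 5.40 at A95, and 5.66 and 7.54 for B96. Only A95 replicate 2 and B96 replicate 1 stood below 6, next came A39 replicate 1 and primary replicate 2, and the other 10 arrays lay between 7.42 and 7.92. The 2 arrays labelled A95 differed by 2.52 and those labelled B96 by 1.88.

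HOXC8, its neighbour toward the anterior end and a gene of the lower cervical and thoracic body, was high in the arrays where HOXC9 was low. Its values were 7.27 and 7.20 in primary, 7.59 and 7.15 in A39, 7.41 and 7.12 in A50, 7.09 and 7.18 in A58, 7.19 and 6.86 at A67, 7.15 and 8.02 at A95, and 8.17 and 7.33 for B96. A95 replicate 2 and B96 replicate 1 were the 2 highest, and the next array, A39 replicate 1, was 7.59. HOXC10, on the other side of HOXC9, read 6.24 and 6.72 in those arrays, inside the 6.18 to 6.73 of the other 12.

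HOXB8, the paralogue of HOXC8 and a gene known from blood progenitors and microglia, was also highest there. It read 6.90 and 6.55 in primary, 6.47 and 7.49 in A39, 7.31 and 7.25 in A50, 7.47 and 6.70 in A58, 7.27 and 6.83 at A67, 7.09 and 7.98 at A95, and 7.83 and 6.81 for B96. A95 replicate 2 and B96 replicate 1 stood at the top and primary replicate 2 and A39 replicate 1 at the bottom. MIR196A1, in the same cluster, read 6.53 and 6.86 in the top arrays, 5.82 and 6.18 in the bottom arrays, and 6.28 to 6.78 in the other 10. MIR196A2 read 6.33 and 6.94 in the arrays where HOXB8 was highest and 6.36 to 7.07 in the other 12.

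On the anterior side of HOXB8, HOXB7 and HOXB6 were low in these arrays, while HOXB9 on the other side read 8.19 and 8.21, against 7.70 to 8.31 in the other 12. HOXB6, a gene expressed in developing lung mesenchyme, read 8.28 and 8.17 in A95 replicate 2 and B96 replicate 1 and 8.72 to 8.98 in the other 12 arrays. HOXB7 read 8.65 and 8.52, against 8.82 to 9.51 in the others. HOXB3, a hindbrain gene, read 8.79 and 8.39, against 8.86 to 9.53. These genes lie on both sides of HOXB4 and HOXB5, which did not have these arrays as their 2 lowest. In the HOXD cluster 3 genes were high: HOXD1 at 8.24 and 8.17 (other arrays 7.65 to 8.03), HOXD8 at 6.28 and 6.45 (5.13 to 6.12) and HOXD11, a gene of forearm and hindlimb patterning, at 7.61 and 7.34 (6.70 to 7.28).

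HOXD8, of the same paralogue group as HOXB8 and HOXC8, is given in full as 1 of the 2 widest of its cluster. It read 5.87 and 5.53 in primary, 5.13 and 6.12 in A39, 5.99 and 5.51 in A50, 5.82 and 6.02 in A58, 5.67 and 5.73 for A67, 6.06 and 6.28 for A95, and 6.45 and 5.60 for B96. The lowest array was A39 replicate 1, and the 3 measured genes of group 8 shared A95 replicate 2 and B96 replicate 1 as their 2 highest arrays. The promoter window of HOXD8 has the most CG of the 3 shown.

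In all, A95 replicate 2 and B96 replicate 1 were the 2 highest arrays for 5 HOX genes and the 2 lowest for 4, or 33.3% of the 27, where the same was true of 27.5% of all rows. The share in HOX genes is thus near that of the table, since these arrays were at either end for many genes. Among other markers, the endothelial kinase TEK read 6.77 and 6.79 there against 9.18 to 10.76 elsewhere, and PECAM1, an endothelial adhesion molecule, 8.44 and 7.83 against 6.17 to 7.04. The mean of the 5 endothelial markers was 7.04 and 6.90 there and 6.98 to 7.38 in the other arrays, and that of the 12 fibroblast markers 11.6 and 11.6 against 11.4 to 12.2. Their part in the HOX values was not tested.

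**Figure D2:**
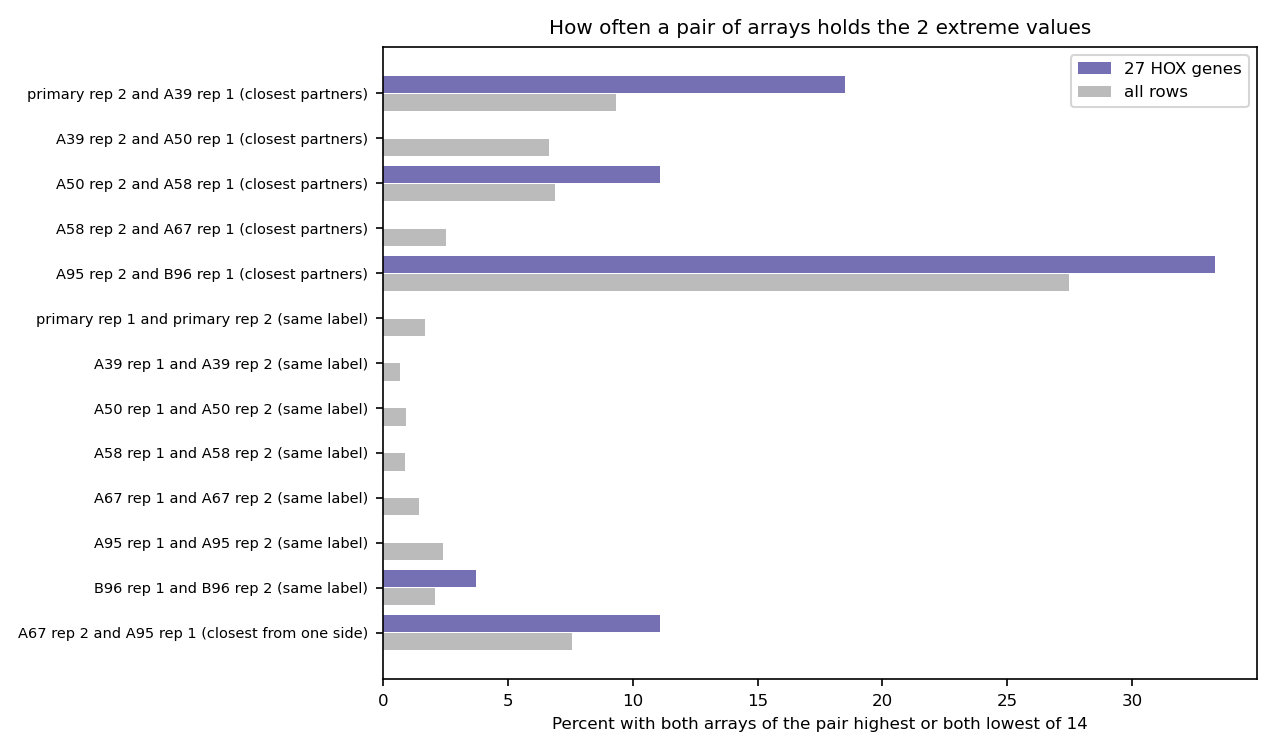
Bars give, for each pair of arrays, the percentage of the 27 HOX genes (purple) and of all 28869 rows (grey) for which both arrays are the 2 highest or the 2 lowest of 14; the horizontal axis is in percent. A95 replicate 2 with B96 replicate 1 reaches 33.3% of HOX genes and 27.5% of all rows, while the 7 pairs with the same label reach at most 1 HOX gene.

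The other pairs held fewer HOX genes at either end. A50 replicate 2 and A58 replicate 1 did so for HOXB1, HOXB3 and HOXB5, 11.1%, against 6.89% of all rows. A39 replicate 2 with A50 replicate 1, and A58 replicate 2 with A67 replicate 1, did so for 0 HOX genes, against 6.64% and 2.53%. Among pairs of 1 label, B96 did so for HOXD13 alone, against 2.1% of all rows. The other 6 did so for 0 HOX genes, against 1.67% in primary, 0.679% in A39, 0.911% in A50, 0.887% in A58, 1.45% in A67 and 2.4% in A95.

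HOXD10, a gene of the lumbar spinal cord and limb, was high in another pair of arrays. It read 6.04 and 5.57 in primary, 5.61 and 5.89 in A39, 6.13 and 5.85 in A50, 5.71 and 6.13 in A58, 6.11 and 7.30 at A67, 7.30 and 6.16 at A95, and 6.13 and 6.05 for B96. A67 replicate 2 and A95 replicate 1 were at 7.30, and the other 12 arrays lay between 5.57 and 6.16. Neighbouring HOXD9 read 7.30 and 7.55 in those 2 arrays and 7.16 to 7.69 elsewhere, and HOXD11 read 7.17 and 7.28 against 6.70 to 7.61, so neither neighbour stood apart with HOXD10.

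HOXA2, a gene of the hindbrain and of the second pharyngeal arch, was highest in the same pair. Its values were 7.95 and 7.75 in primary, 7.68 and 7.46 in A39, 7.44 and 7.96 in A50, 7.93 and 7.76 in A58, 7.73 and 8.49 at A67, 8.28 and 6.98 at A95, and 7.21 and 7.03 for B96. The lowest 3 arrays were A95 replicate 2 and both B96 arrays, all under 7.3, so the A95 arrays differed by 1.30 and the B96 arrays by 0.18. HOXB2, another hindbrain gene, was highest in that pair too, at 10.57 and 10.53, with 10.46 in B96 replicate 1, 10.41 in A95 replicate 2 and the lowest value, 9.55, in B96 replicate 2.

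A67 replicate 2 and A95 replicate 1 held the 2 highest values for these 3 genes, or 11.1% of HOX genes, against 7.59% of all rows for which this pair was at either end. The retinal dehydrogenase gene ALDH1A1, whose product makes the retinoic acid that induces HOX genes, read 8.38 and 8.35 there and 5.38 to 5.84 in the other 12 arrays. The retinoic acid binding protein gene CRABP2 read 10.75 and 10.64, the 2 highest, and 6.80 and 6.89, the 2 lowest, in A95 replicate 2 and B96 replicate 1. ALDH1A1 and CRABP2 are the 2 retinoid genes of widest span, and others did not stand apart. In A67 replicate 2 and A95 replicate 1, RARB read 5.75 and 5.82, against 5.74 to 6.23 in the other 12 arrays. ALDH1A2 read 6.10 and 6.19 (5.86 to 6.73), ALDH1A3 7.69 and 7.80 (7.62 to 8.37) and CYP26A1 5.45 and 5.82 (5.44 to 5.98). CDKN2A, the gene of the cell cycle brake p16, was lowest in the pair, at 6.33 and 6.54. Whether these genes and HOXD10 are linked was not tested.

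**Figure D3:**
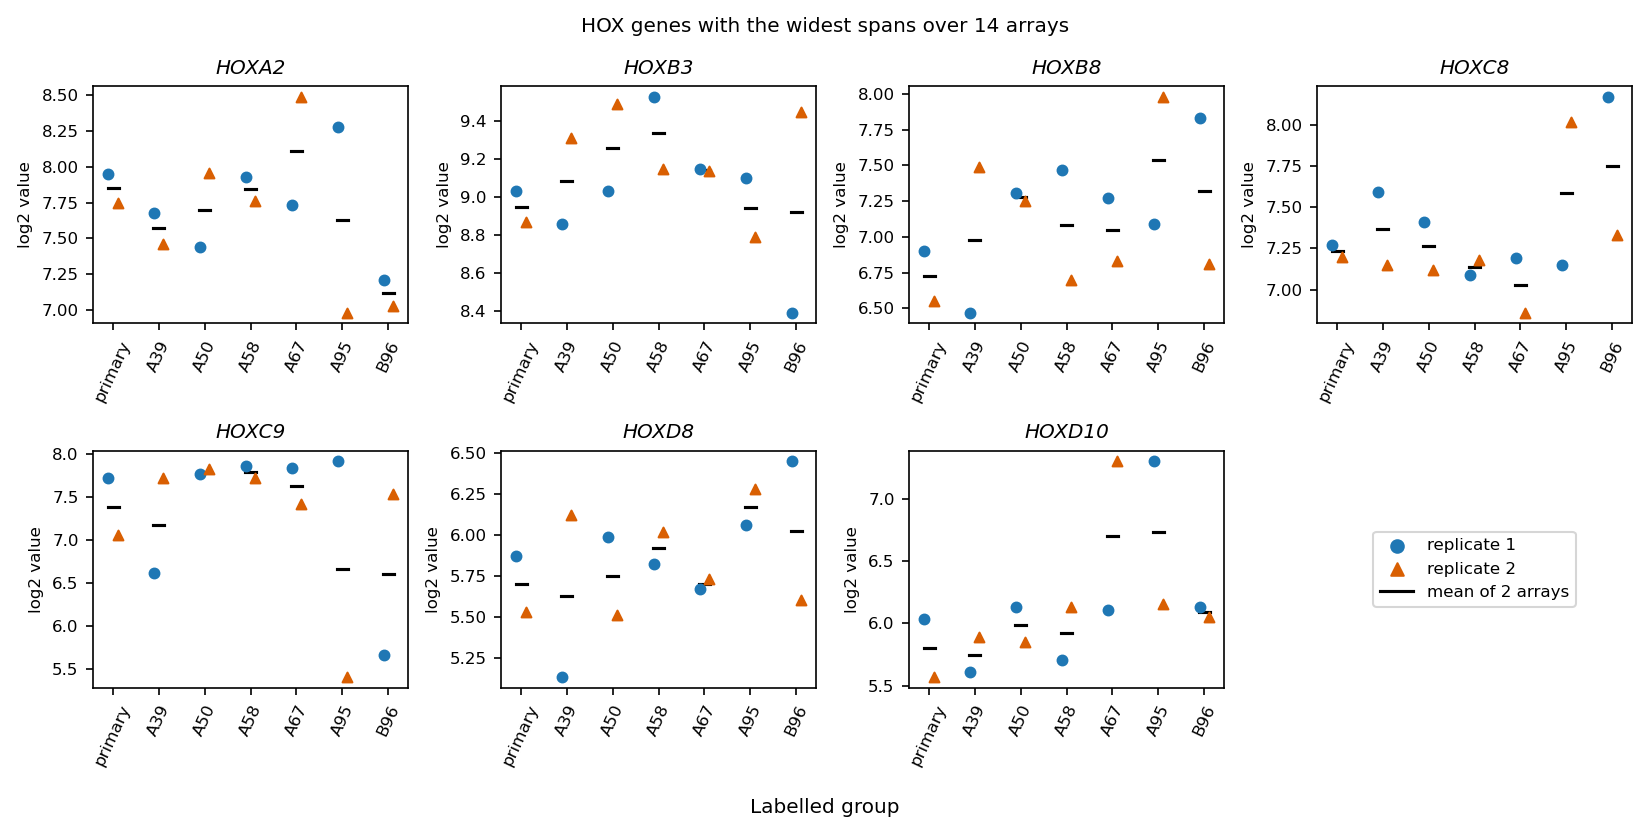
Each panel plots 1 HOX gene as the log2 value (vertical axis, its own scale) by labelled group (horizontal axis); circles are replicate 1, triangles replicate 2 and bars the mean of the 2 arrays. In HOXC9, HOXC8, HOXB8 and HOXD10 the 2 arrays of A95 lie 2.52, 0.87, 0.89 and 1.14 apart.

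Neighbours in the middle of the HOXB cluster were high together in another set of arrays, noticed after the values were seen. HOXB3 read 9.03 and 8.87 in primary, 8.86 and 9.31 in A39, 9.03 and 9.49 in A50, 9.53 and 9.15 in A58, 9.15 and 9.14 for A67, 9.10 and 8.79 for A95, and 8.39 and 9.45 for B96. Its 3 highest arrays were A50 replicate 2, A58 replicate 1 and B96 replicate 2, against 8.39 to 9.31 in the other 11. HOXB4, known for expanding blood stem cells, read 8.29, 8.35 and 8.66, against 7.84 to 8.25. HOXB5, which acts in airway branching, read 8.46, 8.64 and 8.14, against 7.61 to 8.11.

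MIR10A, which lies between HOXB4 and HOXB5, read 7.36, 6.94 and 7.17 in these arrays and 5.35 to 6.57 in the other 11. The same 3 arrays were the highest 3 for 3 of the 27 HOX genes and for MIR10A, and for 1.06% of all rows. These arrays were picked from the values of these genes, so the counts are a description and not a test. The margins were as small as 0.030 for HOXB5 and 0.040 for HOXB4. The span of the HOXB3 gene in the RefSeq table overlaps HOXB4 and MIR10A, so these rows may read shared transcripts. HOXB2 on one side was lowest of all in B96 replicate 2, and HOXB6 on the other read 8.88, 8.78 and 8.98, inside or just above the 8.17 to 8.92 of the other arrays.

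**Figure D4:**
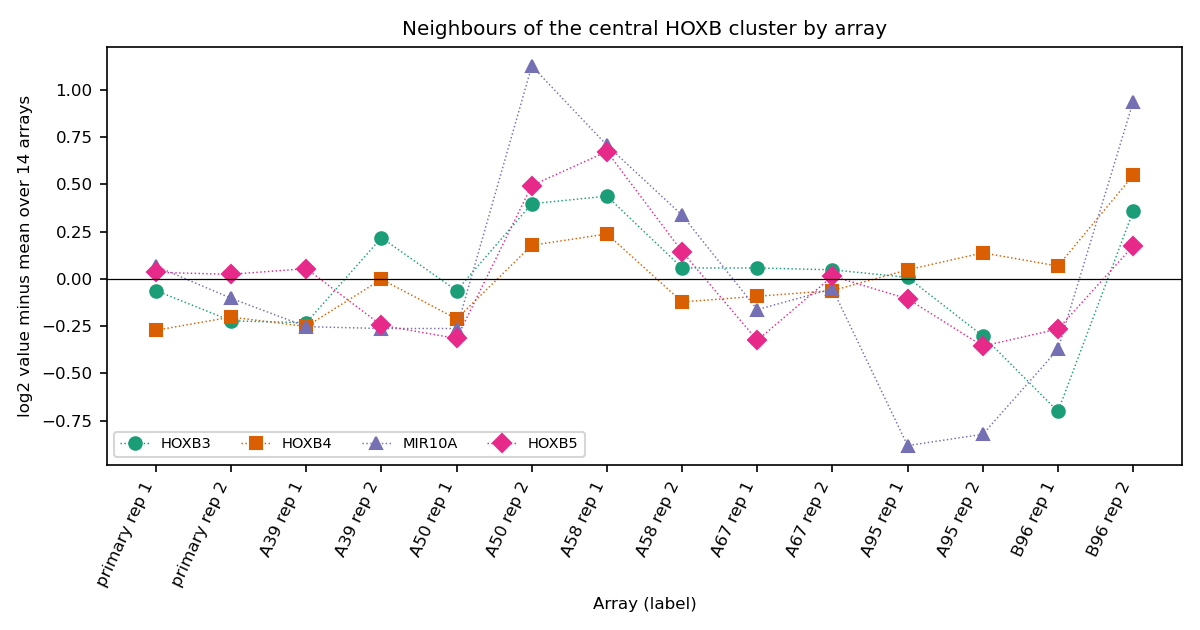
Points give the log2 value minus the mean over the 14 arrays (vertical axis) for HOXB3, HOXB4, MIR10A and HOXB5 in each array (horizontal axis, by label); dotted lines only join points of 1 gene. All 4 are highest in A50 replicate 2, A58 replicate 1 and B96 replicate 2, where MIR10A reads 7.36, 6.94 and 7.17.

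Primary replicate 2 and A39 replicate 1, closest partners across the primary and hTERT labels, held the 2 lowest values for 5 HOX genes, 4 of them posterior: HOXB8, HOXB13, HOXD10, HOXD11 and HOXD12. That is 18.5% of HOX genes, against 9.31% of all rows at either end. HOXB13, a prostate and tail-level gene, read 6.01 and 5.79 there and 6.07 to 6.56 elsewhere. In these arrays 43.3% and 43.7% of all rows were above their own mean. Of 12 posterior genes, 1 was above its own mean in each of these arrays, and after centring each array on its median it was 2 and 3. At the other end, 11 of 12 were above their mean in A95 replicate 1, where 54.9% of all rows were, and 10 after centring. A50 replicate 1 came close, with 10 of 12 before and after centring, where 53.4% of all rows were above their mean.

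The remaining posterior genes had spans from 0.45 to 0.97. HOXD13, a gene of the digits, had the smallest span, from 7.11 through a median of 7.35 to 7.56. HOXD12 ran from 6.41 to 6.92, HOXD9 from 7.16 to 7.69 and HOXC10 from 6.18 to 6.73. HOXC11 ran from 6.01 to 6.94, HOXC12 from 6.21 to 7.18, HOXC13, which acts in hair and nail, from 6.43 to 7.13, and HOXB9 from 7.70 to 8.31. The table holds no detection calls, so whether any of these genes was silent is unknown. Row means at or above the 30th percentile of all rows were found for 22 of the 27. HOXD8 and HOXD10, described above, were among the dimmer 5.

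Among the other anterior and central genes, HOXB1, a hindbrain gene, ran from 6.45 to 7.09. HOXC5 ran from 5.49 to 6.41, HOXD3 from 5.58 to 6.27 and HOXD4 from 8.37 to 8.98. Their highest values fell in different arrays: A67 replicate 1 for HOXB1, B96 replicate 2 for HOXC5, A39 replicate 2 for HOXD3 and A58 replicate 2 for HOXD4.

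The first contrast sets A39, the earliest culture labelled hTERT, against the arrays labelled primary, of which replicate 2 read TERT at the hTERT level. HOX genes showed no common direction: 13 of 27 differences were positive and 14 negative, with a median of -0.010 log2, against 0.030 over all rows. The cluster medians were 0.0075 for HOXB, 0.035 for HOXC and -0.010 for HOXD. The largest in size were HOXD9 at 0.32 and HOXB7 at -0.30, and HOXC9 was at -0.22 ± 0.76 (SE), with group means of 7.39 ± 0.47 (SD, n = 2) in primary and 7.18 ± 0.78 in A39.

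A moderated test across all rows (limma, 2 arrays per group, Benjamini-Hochberg adjustment) called 0 of 27 HOX genes at an adjusted p under 0.05 in this contrast, with 0% of all rows called, and every HOX gene had an adjusted p of 1.00. At an unadjusted p under 0.05 the count was 0 of 27, against 1.2% of all rows. Leaving out primary replicate 2, the array that goes against its label, also called 0, with 11 of 27 differences positive, HOXC9 at -0.55 and HOXD10 at -0.29. Without primary replicate 1 the signs of both turned, to 0.12 and 0.18.

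A95 against A39 spans the passage course. Most HOX differences were positive, 20 of 27, with a median of 0.11 log2, beside a median of 0.070 and 58.6% positive over all rows. After centring each array on its median it was 17 of 27 with a median of 0.040, beside 49.8% positive and a median of 0 over all rows. By position the medians were 0.15 in anterior, 0.10 in central and 0.14 in posterior genes, and by cluster 0.21 in HOXB, 0.10 in HOXC and 0.11 in HOXD. HOXD10 had the largest difference, 0.98 ± 0.42 (SE), from 5.75 ± 0.20 (SD, n = 2) to 6.73 ± 0.81, and HOXB2 had 0.66 ± 0.27. HOXC9 had the lowest, -0.52 ± 0.76.

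Limma called 0 of 27 HOX genes and 0% of all rows here. Unadjusted, HOXB2 and HOXD10 had a p under 0.05, 2 of 27 or 7.41%, against 9.21% of all rows, and their adjusted p were 0.528 and 0.535. Leaving out 1 array kept HOXB2 between 0.60 and 0.72. The others depended on single arrays: HOXD10 was at 0.41 without A95 replicate 1 and at 1.55 without A95 replicate 2, and HOXC9 at 0.74 without A95 replicate 2 and at -1.78 without A95 replicate 1. HOXB8, at 0.56 ± 0.45, was at 0.045 without A39 replicate 1 and 0.11 without A95 replicate 2.

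The contrast of A95 with primary shares its A95 arrays with the last one. In it 20 of 27 differences were positive, with a median of 0.20 against 0.090 over all rows, and 11 of 12 posterior genes were positive, where 60.0% of all rows were positive. After centring each array on its median, 16 of 27 HOX genes, 9 of 12 posterior genes and 45.5% of all rows were positive, with medians of 0.070 for HOX genes and -0.035 for all rows. HOXD11 had 0.57 ± 0.21 (SE), HOXB8 0.81 ± 0.45 and HOXD10 0.92 ± 0.42, with limma's adjusted p of 0.489, 0.510 and 0.494. HOXD11 was the 1 HOX gene with an unadjusted p under 0.05, or 3.70%, against 10.1% of all rows, and 0 were called after adjustment, with 0% of all rows. Without primary replicate 2, 18 of 27 differences were positive with a median of 0.15, beside 0.075 over all rows. Among posterior genes HOXC9 at -1.06 and HOXD13 at -0.020 were then negative. The other posterior genes were positive, with HOXB13 at 0.010 and HOXC10 at 0.015 the smallest. HOXD11 was then at 0.40, HOXB8 at 0.64 and HOXD10 at 0.69, and 0 were called. HOXD10 was at 0.36 without A95 replicate 1 and at 1.49 without A95 replicate 2, and HOXB8 at 1.26 and 0.36, respectively.

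B96 against A95 compares the culture labelled B with the last A passage. The differences had no common direction, with 12 positive, 14 negative and 1 at zero, and a median of -0.010 against -0.0050 over all rows. HOXD10 was lowest at -0.64 ± 0.42 (SE), HOXA2 was at -0.51 ± 0.38 and HOXB2 at -0.46 ± 0.27. Without A95 replicate 1, HOXD10 was at -0.070 and HOXA2 at 0.14. Without A95 replicate 2 they were at -1.21 and -1.16. HOXB2 was at -0.010 without B96 replicate 2 and at -0.92 without B96 replicate 1. HOXC9 was at -0.060 ± 0.76, the difference of 2 groups that each hold 1 high and 1 low array, and reached 1.20 without A95 replicate 1 and -1.32 without A95 replicate 2. Limma called 0 of 27, with 0% of all rows, and 0 of 27 had an unadjusted p under 0.05, against 2.28%.

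Steps between neighbouring passages called 0 HOX genes each in limma, with 0% of all rows. At an unadjusted p under 0.05 the counts were also 0 of 27 in A50 against A39, A58 against A50, A67 against A58 and A95 against A67, where 0.797%, 0.984%, 1.34% and 3.13% of all rows reached it. HOXD10 had 0.79 ± 0.42 (SE) from A58 to A67, where only A67 replicate 2 lay above both A58 arrays. It was at 0.19 without that array and at 1.38 without A67 replicate 1. HOXC9 had -0.97 ± 0.76 from A67 to A95, with 0.29 without A95 replicate 2 and -2.23 without A95 replicate 1. An F test over the 7 group means in limma called 0 HOX genes, with 0% of all rows called, and 0 were under 0.05 unadjusted, against 4.62%.

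A linear trend over the 10 arrays labelled A gave a slope per 10 passages for each gene. The slope was positive in 19 of 27 HOX genes, with a median of 0.022. Over all rows the median was 0.012 and 58.5% were positive. These values are without centring. After centring, 50.5% of all rows were positive, and no HOX count is given beside that share. HOXB2 had a slope of 0.11 ± 0.033 (SE), HOXC13 of 0.070 ± 0.024, HOXD10 of 0.19 ± 0.072, HOXD11 of 0.072 ± 0.032 and HOXB6 of -0.063 ± 0.026. These 5 genes, named for their p, had an unadjusted p under 0.05, or 18.5% of 27, against 18.7% of all rows. Of these, 4 slopes were positive and 1 negative, where 9.89% of all rows had a positive and 8.83% a negative slope with such a p. Limma called 0 of 27 after adjustment, where 0.281% of all rows were called, and the smallest adjusted p was 0.128, for HOXB2. The 10 arrays include closest partners from adjacent passages, and how far they depend on each other was not tested.

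The trend depended on how the arrays were weighted. With array weights limma called 3 HOX genes, HOXB2 at 0.12, HOXC13 at 0.088 and HOXD10 at 0.27 per 10 passages (adjusted p = 0.035, 0.033 and 0.024), and 7.52% of all rows. Without the arrays at passage 95 the slope was 0.30 for HOXD10, which was not called in that fit. Among those arrays A67 replicate 2 read 7.30 and the others 5.61 to 6.13, so the slope leaned on A67 replicate 2. In the same fit it was 0.16 for HOXC9 and -0.13 for HOXC8, against -0.14 and 0.042 with all 10 arrays. Neither HOXC9 nor HOXC8 was called in either fit.

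Other genes of HOX regulation came from lists of 85 symbols, of which 56 were measured, and limma called 0 of them in any comparison (smallest adjusted p = 0.125). For the trend, an unadjusted p under 0.05 was reached by 1 positive and 1 negative slope among 7 measured TALE cofactors, homeodomain proteins that bind DNA together with HOX proteins. It was reached by 1 positive and 2 negative slopes among 11 genes flanking the clusters and 2 negative among 6 RNAs of the clusters. Among 15 retinoid and CDX genes it was 1 positive slope (ALDH1A1), and among 17 trithorax and Polycomb genes 4 positive ones (ASH2L, EED, EZH2 and WDR5). Each share is to be read against 18.7% of all rows.

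The genes of widest span in these lists peaked in various arrays. PBX3, a TALE cofactor, read 7.98 and 7.86 in A95 replicate 2 and B96 replicate 1 and 8.31 to 9.07 elsewhere. MEIS2, another, was highest in A50 replicate 2 and A58 replicate 1, at 10.30 and 10.21, against 9.28 to 10.05 elsewhere. EZH2, the Polycomb methyltransferase that keeps silent HOX genes shut, ran from 8.26 in A39 replicate 2 to 10.15 in A95 replicate 1. In A39 replicate 2 the proliferation gene MKI67 was also lowest, at 8.79, and it was highest in A67 replicate 2, at 10.91. What part EZH2 and MKI67 had in the HOX values was not tested. KMT2D, a trithorax-group methyltransferase, read 9.34 in B96 replicate 2 and 8.28 to 8.65 elsewhere. Among the flanking genes CALCOCO1 ran from 8.57 to 9.71 and SNX10 from 6.31 to 7.98, and MIR10B ran from 2.34 to 3.64.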

How the data were processed

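Per the labels' protocols, RNA from biological duplicates was labelled as whole-transcript sense target and hybridised to Affymetrix human Gene 1.0 ST arrays. The authors deposited 1 table of log2 values for 14 arrays, from 0 to 14.27, with array medians of 7.26 to 7.48. The log base was read from this range. How the scanner values were background-corrected, summarised and normalized is unstated in the sources used here. There are no detection calls, and the number of arrays limits the precision.

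Rows were named from the platform annotation and checked by gene ID against RefSeq: 19310 rows have 1 symbol (19279 matched by ID), 1752 several and 7807 none. Members and gene lists were chosen with earlier results of these data known. All rows entered limma 3.58.1 (R 4.3.3) as 7 group means, or as a slope for arrays labelled A, with two-sided tests and Benjamini-Hochberg adjustment over 28869 rows. The fits were tested on simulated data. Genes described in full had a span of at least 1.5 log2 or were among the 2 widest of their cluster. Of each pathway list the 2 genes of widest span were named. MIR196A1, MIR196A2, TEK, PECAM1, ASH2L, EED and WDR5 were named after their values were seen. RARB, ALDH1A2, ALDH1A3 and CYP26A1 were also named outside the rule of widest span. For pathway genes with several rows, the row with the highest mean was used. Replicate numbers did not pair the arrays.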

Additional observations from a re-analysis of the deposited data

How the results depend on the processing

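The counts of called HOX genes stayed at 0 in all 10 comparisons under quantile normalization, centring on array medians, the filter on dim rows, 1 row per gene, a robust prior with intensity trend, passage as a random block (trend) and the replicate block, and when each array was left out. The exception was array weights, with 3 called in the trend. The replicate block also gave 0 called HOX genes in each comparison. The trend called 159 of 28869 rows under quantile normalization, 429 under centring, 132 with the robust prior and 74 with the replicate block. It called 729 with passage as a random block, 271 of 20211 under the filter and 174 of 18377 with 1 row per gene. In the other comparisons these settings called 0 rows. With shares of all rows this small, the zeros do not show that HOX genes were stable. Replicate numbers did not pair the arrays: the correlation of replicate differences between groups ran from -0.53 to 0.20 over 21 pairs of groups, and 4 were over 0.1.

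Leaving out A95 replicate 2 and B96 replicate 1 together, an alternative chosen after seeing the data, called 0 as well. It moved the HOXB median to 0.12 in A95 against A39 and to 0.18 in B96 against A95, where HOXC moved to -0.29. It turned HOXB3 to 0.015 and 0.35 in these contrasts, HOXC8 to -0.22 and HOXC9 to 0.74 in the first, and their slopes to -0.052 and 0.11. The filter on dim rows moved the HOXD median in B96 against A95 to 0.0075, with fewer genes tested, since HOXD8 and HOXD10 were among the rows left out and have no value there. Array weights moved the HOXB median slope to 0.0092 and turned the slopes of HOXB8, HOXC8 and HOXC9 to -0.0043, -0.016 and 0.040. HOXD10 then passed the test at 0.27. Without passage 95 the median slopes were 0.039 for HOXC and -0.0014 for HOXD, and the slopes of HOXB3, HOXC8 and HOXC9 turned to 0.032, -0.13 and 0.16. Centring turned HOXA2 to -0.010 in A95 against A39. The causes were not tested.

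Each array of a comparison was also left out in turn, which gave the following ranges of differences, or of slopes for the trend, for the cluster medians and the genes described in full; 0 HOX genes were called in these fits. In A39 against primary, the median ran from -0.055 to 0.088 for HOXB, -0.040 to 0.17 for HOXC, -0.085 to 0.26 for HOXD. Single genes there ran from -0.090 to 0.36 for HOXB3, -0.26 to 0.77 for HOXB8, -0.085 to 0.35 for HOXC8, -0.39 to -0.17 for HOXA2, -0.77 to 0.34 for HOXC9, -0.57 to 0.42 for HOXD8, -0.29 to 0.18 for HOXD10. In A95 against A39, the median ran from 0.048 to 0.25 for HOXB, 0.040 to 0.28 for HOXC, 0.050 to 0.26 for HOXD. Single genes there ran from -0.59 to 0.71 for HOXA2, -0.36 to 0.085 for HOXB3, -0.22 to 0.65 for HOXC8, -1.77 to 0.74 for HOXC9, 0.045 to 1.06 for HOXB8, 0.050 to 1.04 for HOXD8, 0.41 to 1.55 for HOXD10. In B96 against A95, the median ran from -0.11 to 0.23 for HOXB, -0.27 to -0.085 for HOXC (0.085 with all arrays), -0.17 to -0.010 for HOXD. Single genes there ran from -1.16 to 0.14 for HOXA2, -0.56 to 0.51 for HOXB3, -0.72 to 0.29 for HOXB8, -0.27 to 0.60 for HOXC8, -1.32 to 1.20 for HOXC9, -0.57 to 0.28 for HOXD8, -1.21 to -0.070 for HOXD10. In the trend, the median ran from 0.012 to 0.032 for HOXB, 0.018 to 0.049 for HOXC, 0.0098 to 0.041 for HOXD. Single genes there ran from -0.060 to 0.14 for HOXA2, -0.052 to 0.082 for HOXC8, -0.28 to 0.11 for HOXC9, -0.073 to -0.0054 for HOXB3, 0.0017 to 0.14 for HOXB8, 0.046 to 0.13 for HOXD8, 0.12 to 0.29 for HOXD10.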
